A study of Arabidopsis thaliana with 17 samples.

Results

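The comparison described here is the response to 1 h of heat in Arabidopsis thaliana seedlings that lack a working HSFA2 gene. Of the 17 arrays of the series, 4 belong to it and were chosen by their labels. They are 2 arrays of hsfa2 seedlings that were triggered and 2 arrays of hsfa2 seedlings that were naive. All 4 came from whole seedlings of the hsfa2 line SALK_008978, a T-DNA insertion line in the Col-0 background, collected at 7 d of age. Growth was on MS medium with sucrose at 22 °C under 16 h of light. Triggered seedlings spent 1 h at 37 °C in a water bath just before collection, and naive seedlings were never heated. For comparison the series holds 3 triggered and 3 naive arrays of wild-type Col-0 seedlings of the same age, grown and heated in the same way. Another hsfa2 group of 2 arrays, primed at 4 d of age and triggered at 7 d, is quoted for single values only. The mutant is represented by 1 insertion line. In RNA from whole seedlings, fewer cells of a type and less RNA per cell cannot be told apart. Arrays of a group are labelled as biological replicates, but whether they came from separate cultures is not stated, so the p-values measure spread between arrays. For each probe set that spread was estimated from all 17 arrays, wild type included. The SE and p-values of the hsfa2 change are therefore not the spread of the 4 hsfa2 arrays alone.

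Heat shock transcription factors bind heat shock elements in promoters and switch on genes for chaperones, the proteins that keep unfolding proteins soluble or refold them. HSFA1 factors start this response in Arabidopsis, and HSFA2, itself heat-induced, is known for prolonging it and for its part in the memory of an earlier heat stress. Setting triggered against naive hsfa2 seedlings shows which part of the 1 h response runs in a plant with a disrupted HSFA2 gene. No listed probe set measures HSFA2, and the genotype label was therefore not checked on the targeted gene. Whether any of the 8730 unlisted probe sets measures HSFA2 was not checked.

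Values are given as the log2 of the deposited array intensity. A change is the triggered mean minus the naive mean on that scale, so that 1 stands for a 2-fold rise. A probe set was called when the adjusted p-value of limma, a linear model fitted to all 17 arrays, was under 0.05. Array medians were 58.9 and 56.1 intensity units in triggered and 63.3 and 63.1 in naive hsfa2 seedlings. The mean bioB hybridization control was 8.14 and 8.01 in triggered and 7.49 and 7.42 in naive hsfa2 arrays, and its part in the results was not tested. The 2 triggered arrays differed by a median of 0.16 per probe set and the 2 naive arrays by 0.11, against a median absolute change of 0.22 between the treatments.

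The second triggered array stood apart from the other arrays by a small set of probe sets. There were 30 probe sets at least 1 log2 unit above every other array of the series in triggered replicate 2, and 18 of them exceeded every other array by at least 2. Such an excess of 2 was met by at most 1 probe set in any other array. The 30 probe sets ran from 5.02 to 11.04 in that array, while no other array went above 5.37. They include OLEO3, an oleosin of seed oil bodies, at 3.80 and 5.62 in the triggered arrays and 3.68 and 3.63 in the naive ones. PAP85, a gene of the vicilin-like seed storage protein type, read 3.35 and 7.52 in the triggered arrays and 3.24 and 3.40 in the naive ones. Both genes were thus at the naive level in triggered replicate 1 and high in triggered replicate 2. Of the 30 probe sets, 12 had a listed gene. Late embryogenesis abundant genes are a family known from maturing seeds, and 7 were picked by name keyword, which misses members without such a name. Of these 7, 5 were higher in triggered replicate 2 than in triggered replicate 1, 3 of them by at least 1 log2 unit. None of the 7 was called. The seed storage markers cruciferin, 2S albumin and OLEO1 had no listed probe set. None of the 30 was called in hsfa2, they were picked after their values were seen, and the source of their signal was not tested. The counts of called probe sets are given below with and without this array.

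**Figure D1:**
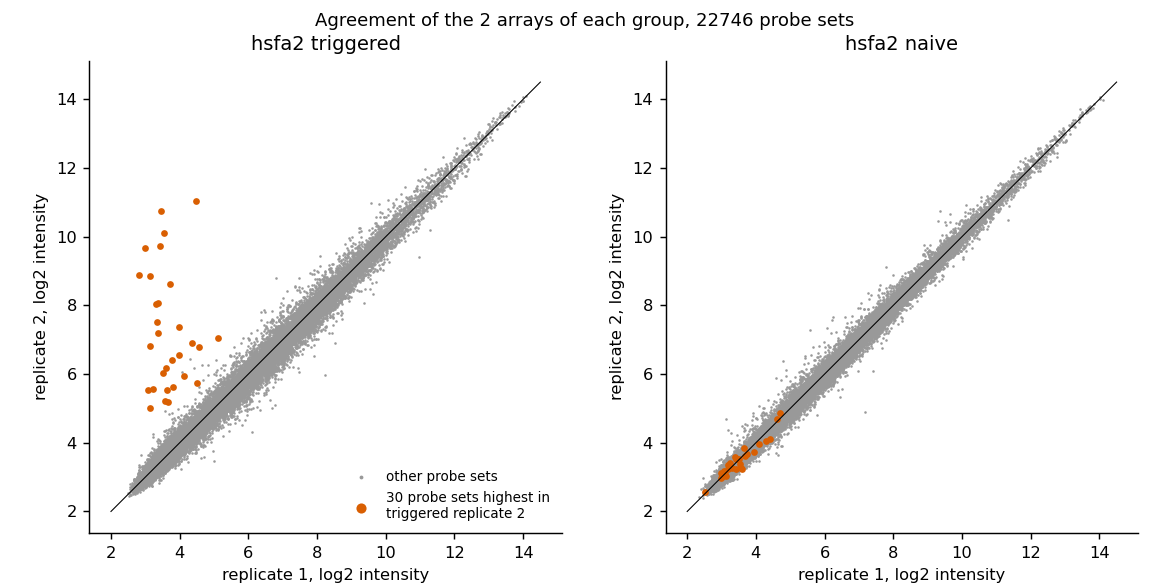
Log2 intensity in replicate 2 (vertical axis) against replicate 1 (horizontal axis) for the 2 triggered arrays (left) and the 2 naive arrays (right) of hsfa2 seedlings, 1 point per probe set, with the line of equal values. The 30 probe sets marked in orange lie between 5.02 and 11.04 in triggered replicate 2 and on the line in the naive arrays.

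Heat changed 1908 of 22746 probe sets in hsfa2 seedlings (8.39%), 797 of them higher (3.5%) and 1111 lower (4.88%). The rises were larger than the falls. The median change was 1.59 among those called higher and -1.03 among those called lower. A change of at least 8-fold (3 log2 units) was found for 195 probe sets that rose and 4 that fell, and 80 rose by at least 5 log2 units. At least 2-fold, 571 rose (2.51%) and 597 fell (2.62%). Without triggered replicate 2, 557 probe sets were called higher and 482 lower, 481 and 381 of them by at least 2-fold, and 192 rose and 7 fell by at least 3 log2 units. Probe sets called higher had a median naive level of 6.01, against 5.98 over all probe sets, and those called lower started from 7.30. Both triggered arrays lay above both naive arrays for 7424 probe sets (32.6%) and below them for 7466 (32.8%), so a lack of overlap between arrays alone is common here. The count of calls fell to 870 without naive replicate 1, to 828 without naive replicate 2, to 975 without triggered replicate 1 and to 1039 without triggered replicate 2. In all 4 of these fits 680 of the 1908 probe sets were called, 431 higher and 249 lower. When each array was centred on its median, which moved the median change of all probe sets from 0.02 to 0.15, 1152 probe sets were called higher and 698 lower, and the share of calls that were rises was 41.8% as deposited and 62.3% after centring.

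Small heat shock proteins, the chaperones that bind unfolding proteins without using ATP, were among the largest rises. Of 10 members with a probe set, out of 18 loci on the list, 7 rose, against 3.5% of all probe sets. None of the members fell and 3 were not called. Their median change was 7.92, against 0.02 over all probe sets. AT1G53540 read 13.68 and 13.84 in triggered and 3.74 and 4.23 in naive hsfa2 seedlings, a rise of 9.77 ± 1.02 (SE, n = 2 arrays each, limma adjusted p = 3.4e-05), or 873-fold. ATHSP22.0, a small heat shock protein of the endoplasmic reticulum, read 13.04 and 13.18 in triggered and 3.74 and 4.51 in naive seedlings. It rose by 8.99 ± 0.57 (limma adjusted p = 2.41e-07). In the triggered arrays both genes were near the top of the scale, and in the naive arrays near its bottom, with no overlap. The other rises were those of AT1G52560 (9.43), AT5G51440 (8.81), AT2G29500 (7.97), AT5G37670 (7.88) and AT1G54050 (7.43). The 3 members that were not called had changes of -0.68 (AT4G21870), 0.05 (AT5G54660) and 0.09 (AT5G47600). AT4G21870 read 9.73 and 9.50 in triggered and 10.19 and 10.40 in naive seedlings. The 7 rises were called without each of the 4 hsfa2 arrays in turn.

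Larger chaperones and their partners rose as well. Of 11 measured members, out of 38 loci on the list, 9 rose, against 3.5% of all probe sets, and none fell. The median change was 3.68. Hop3, one of the HOP proteins that pass client proteins between HSP70 and HSP90, read 12.39 and 12.44 in triggered and 4.30 and 4.49 in naive seedlings. Its rise of 8.02 ± 0.51 (limma adjusted p = 2.24e-07) was the largest of the group. The 3 HOP genes differed from each other, since Hop2 rose by 2.85 and Hop1 changed by 0.10 and was not called. Hop1 read 8.39 and 8.27 in triggered and 8.25 and 8.21 in naive seedlings, so its groups were almost level. The J-domain protein gene AT2G20560, whose type of product hands clients to HSP70, rose by 7.66. AT5G48570, which encodes the prolyl isomerase ROF2 (FKBP65), rose by 7.55, and Fes1A, an HSP70 nucleotide exchange factor, by 6.72. HSA32, known for keeping acquired thermotolerance from decaying, rose by 5.54.

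The cytosolic HSP70 gene AT3G09440 had 13.56 and 13.57 in triggered and 9.96 and 9.81 in naive hsfa2 seedlings. Both pairs were tight and far apart, and the rise was 3.68 ± 0.12 (limma adjusted p = 5.33e-10), or 12.8-fold. Hsp70-2 rose by 3.49 and AT1G11660, another HSP70 family gene, by 1.74. AT1G23100 changed by 0.44 and was not called. CLPB2, named as a member of the HSP100 family, is not on this list and read 3.96 and 4.17 in triggered and 3.42 and 3.39 in naive seedlings. It rose by 0.66, and its call was lost without naive replicate 1 (limma adjusted p = 0.0581), naive replicate 2 (0.0695) or triggered replicate 2 (0.0897). The 9 rises of the list were called without each array in turn. No gene on the list of heat shock factors had a listed probe set.

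**Figure D2:**
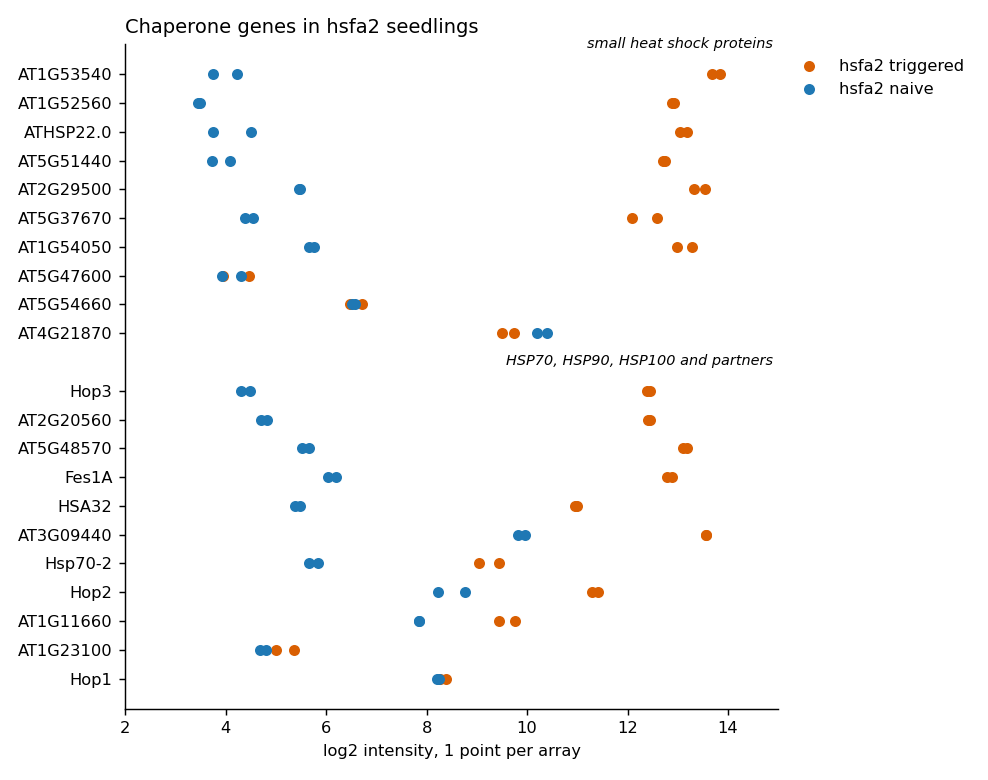
Log2 intensity (horizontal axis) of the 10 small heat shock protein genes and the 11 HSP70, HSP90, HSP100 and partner genes with a probe set, 1 point per array, triggered hsfa2 arrays in orange and naive hsfa2 arrays in blue. The 16 genes that rose have both orange points to the right of both blue ones, from AT1G11660 (1.74) to AT1G53540 (9.77).

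Chaperone genes outside these lists were mixed. Cpn60beta2, a subunit of the chaperonin of plastids, rose by 3.41 and Cpn60beta3 by 0.98, while Cpn60beta4 changed by -0.64 and was not called. The Cpn60beta3 call was lost without naive replicate 2 (limma adjusted p = 0.134) and without triggered replicate 1 (0.107). SQN, a cyclophilin-type partner of HSP90, read 7.67 and 7.18 in triggered and 5.13 and 4.82 in naive seedlings and rose by 2.45. Its call was lost without naive replicate 1 (0.0611), naive replicate 2 (0.109) and triggered replicate 1 (0.107). SGT1A, a co-chaperone of HSP90, rose by 4.07, and TIL, the temperature-induced lipocalin, by 2.85, and both were singled out after their values were seen. In the endoplasmic reticulum, where unfolded proteins set off a separate response, 1 of 6 measured genes rose, against 3.5% of all probe sets. This was BZIP28, a transcription factor held in that membrane until stress releases it, at 9.89 and 9.66 in triggered and 7.52 and 7.80 in naive seedlings (2.11 ± 0.17). ATERDJ3B (0.63) and CRT1b (0.37), a J-domain protein and a calreticulin of the same compartment, were not called, and BZIP60, the other main factor of that response, changed by -0.11.

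Several of the largest rises belonged to loci that carry no symbol in the annotation. AT1G71000 rose by 8.39, AT5G25450 by 7.67, AT5G10695 by 7.02 and AT5G07330 by 6.82. AT5G07330 read 10.29 and 11.08 in the triggered arrays, a gap of almost a log2 unit, and 3.88 and 3.85 in the naive ones. Probe sets with no listed gene were among the strongest, with 250351_at up by 9.96, 252515_at by 9.84 and 250296_at by 9.46. STZ, a zinc finger repressor of stress responses, read 10.00 and 9.70 in triggered and 5.08 and 5.0 in naive seedlings and rose by 4.81 ± 0.93 (limma adjusted p = 0.00548). COR47, a dehydrin known from cold and drought, rose by 1.63, a call that was lost without any one of the 4 arrays (limma adjusted p from 0.114 to 0.232). The cold-regulated genes COR15A and COR15B had changes of -0.47 and -0.90 and were not called.

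Transcripts of the mitochondrial genome formed a further group with high values after heat. Mitochondria carry their own small genome, which encodes subunits of the respiratory chain and factors for their assembly. Of 16 mitochondrion-encoded genes with a probe set, 12 were higher, against 3.5% of all probe sets, and none were lower. In all 16 both triggered arrays lay above both naive arrays, against 32.6% of all probe sets. Without triggered replicate 2, 10 of the 16 were called. The median change was 3.32. nad6, for a subunit of respiratory complex I, read 10.43 and 10.46 in triggered and 3.58 and 3.31 in naive hsfa2 seedlings, a rise of 7.00 ± 0.33 (limma adjusted p = 1.52e-08). Other complex I genes were spread widely. nad5 rose by 5.81, nad9 by 5.36, nad4L by 5.04 and nad1 by 3.68, whereas nad4 (1.08), nad7 (0.87) and nad2 (0.35) were not called. These subunits sit in one enzyme, the proton-pumping NADH dehydrogenase at the head of the respiratory chain. The cytochrome oxidase genes cox2 and cox1, for its last enzyme, rose by 4.72 and 4.04. Among the genes for cytochrome c maturation, ccb452 rose by 5.02, ccb203 by 2.97 and ccb206 by 2.33, and ccb382 changed by 0.70 and was not called. matR, a maturase gene, rose by 2.69 and orfX by 1.98, and only these 2 of the 12 lost the call when single arrays were left out (limma adjusted p from 0.0754 to 0.143). All of these triggered values lay above the naive ones, whether called or not. Probe sets of 1 gene also differed, since the 7 probe sets of nad1 had changes from 0.69 to 4.65 and 5 of them were called. The list was made after values of these data were known.

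The nuclear genome carries a copy of mitochondrial DNA on chromosome 2, at loci AT2G07670 to AT2G07777. Of 34 probe sets assigned to these loci, 18 were higher in triggered hsfa2 seedlings, against 3.5% of all probe sets, and none lower. Their changes ran from 0.03 to 5.87, with a median of 2.03. Without triggered replicate 2, 16 were called higher. By their identifiers 19 of the 34 match several transcripts, so signal from the nuclear copy and from the mitochondrial genome cannot be told apart. These loci were chosen after their values were seen. The plastid genome differed from the mitochondrial one in the count of calls. Of 69 plastid-encoded genes none was called, and their median change was -0.24, and -0.11 after median centring. The spread used in the test includes the wild-type arrays. There the median SD of these genes was 1.10 in triggered and 0.78 in naive seedlings, against 0.12 and 0.14 in hsfa2. The part of that spread in the lack of calls was not tested. Both triggered arrays lay above both naive arrays for 15 of the 69, against 32.6% of all probe sets. For 36 of the 69 they lay below, against 32.8%. The median level of the 69 was 9.16 and 9.33 in triggered and 9.34 and 9.35 in naive hsfa2 arrays. These levels were close in all 4 arrays, and triggered replicate 2 (9.333) was almost level with naive replicate 1 (9.338). The largest fitted changes were those of psbN (-1.67), rps16 (-1.33), rbcL (-1.16) and psaJ (-1.14), none of which passed the test.

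**Figure D3:**
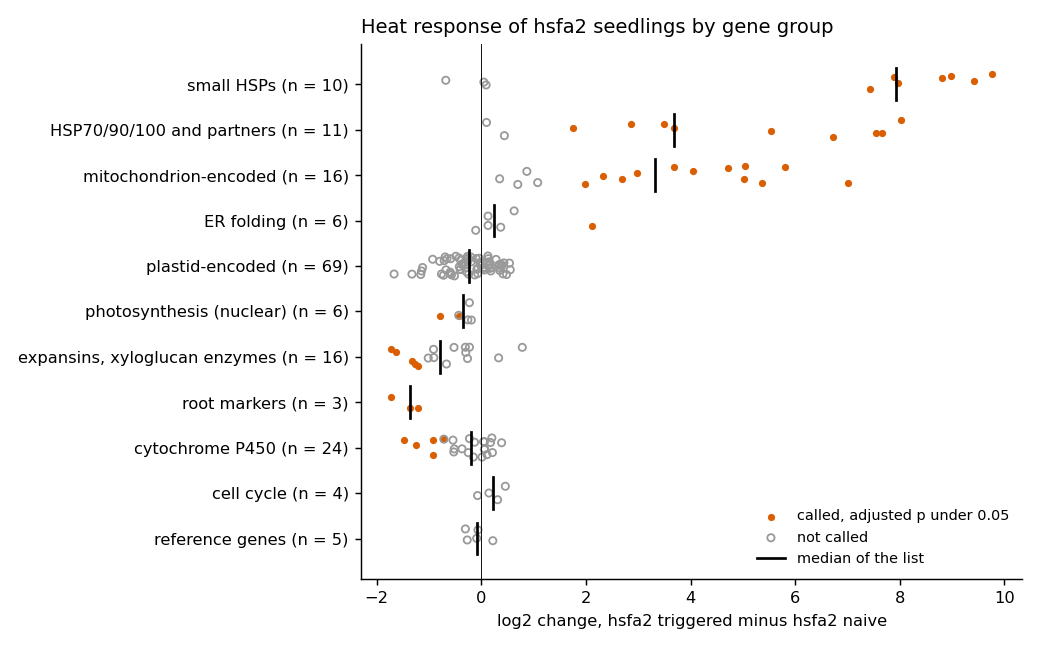
Log2 change between triggered and naive hsfa2 seedlings (horizontal axis) for the members of 11 gene groups, 1 point per gene, filled where called and open where not, with a bar at each group's median. Small heat shock proteins (median 7.92), larger chaperones (3.68) and mitochondrion-encoded genes (3.32) lie to the right, and root markers (-1.36) and cell wall genes (-0.79) to the left.

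On the cell wall and root lists together, which share 2 genes, 6 of 17 measured genes fell, against 4.88% of all probe sets. Expansins loosen cell walls during growth, and xyloglucan enzymes cut and rejoin wall polysaccharides. Of 16 measured genes on a chosen list of these families 5 fell, none rose, and their median change was -0.79. Picked by name keyword instead, 4 of 19 expansins fell, none rose, and the median change was -0.23. Of 11 xyloglucan enzymes picked in that way 2 fell, none rose, and the median change was -0.66. EXPA18, a root hair expansin, read 4.45 and 4.57 in triggered and 5.97 and 6.48 in naive hsfa2 seedlings and fell by 1.72. EXPA4 fell by 1.63, EXGT-A3 by 1.33, EXPA9 by 1.26 and EXPA7, also of root hairs, by 1.22. The falls of EXPA9 and EXPA18 were called without each array in turn. The call of EXPA4 was lost without naive replicate 1 (limma adjusted p = 0.0747) and without triggered replicate 2 (0.0747), and those of EXPA7 and EXGT-A3 without any one array (0.0596 to 0.211). XTH26 lies outside this list and fell by 1.08, a call lost without naive replicate 2 (0.0779) and triggered replicate 1 (0.058). EXLA1 (0.78) and XTH18 (0.33) had positive changes and were not called, and were singled out after their values were seen. EXLA2, also outside the chosen list, read 6.85 and 7.27 in triggered and 5.54 and 5.63 in naive hsfa2 seedlings. Its change of 1.48 was not called (limma adjusted p = 0.136).

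All 3 measured root markers fell, against 4.88% of all probe sets. The markers were EXPA18, EXPA7 and PYK10, the beta-glucosidase of root endoplasmic reticulum bodies. PYK10 read 10.92 and 11.47 in triggered and 12.47 and 12.64 in naive seedlings, a fall of 1.36 (limma adjusted p = 0.00421) with no overlap between the groups. Its call was lost without naive replicate 2 (0.0515) and without triggered replicate 1 (0.0621). NAI2, a component of the same bodies, fell by 1.73 and was called without each array in turn. The guard cell list had 1 measured member, FMA, with a change of -0.76 that was not called. No marker of green tissue had a listed probe set.

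The largest fall with a listed gene was that of AT5G54370, at 3.91 and 3.91 in triggered and 8.12 and 8.01 in naive seedlings. It fell by 4.16 ± 0.82 (limma adjusted p = 0.00592), or 17.8-fold. Its call was lost without naive replicate 1 (0.0515). BGLU33, of the beta-glucosidase family, read 3.31 and 3.48 in triggered and 6.34 and 6.27 in naive seedlings, a fall of 2.91 ± 0.33 (limma adjusted p = 8.31e-05). In both genes the triggered arrays were below the naive ones, close to the lowest levels on the arrays, with no overlap. Among probe sets without a listed gene, 264014_at fell by 3.82 and 252965_at by 3.00, and both held without each array in turn. 262427_s_at fell by 3.28, a call lost without any one array (0.0667 to 0.0864).

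Other large falls were those of genes whose role is not described here. AT1G74680 fell by 2.35, AT5G64110 by 2.38 and AT3G61820 by 2.15, and these 3 were called without each array in turn. AT5G60530 (-2.81), AT1G70420 (-2.77), AT1G50060 (-2.50), AT5G10130 (-2.36), AT2G18980 (-2.17) and AT3G45210 (-2.14) lost the call without any one array (limma adjusted p from 0.0552 to 0.198). The calls of the next 3 genes depended on which array was left out. AT2G47550 fell by 2.34, a call that held only without naive replicate 1 (0.0282). DRT100 fell by 2.03 and ZW9 by 1.76, and both calls held only without triggered replicate 2 (0.0268 and 0.0134).

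Secreted proteases and oxidases were among the other falls. The subtilase genes, which encode serine proteases of the cell wall, had 2 of 4 members lower, against 4.88% of all probe sets. SBT4.12 read 6.54 and 6.49 in triggered and 9.32 and 9.03 in naive seedlings and fell by 2.66, and SBT1.3 fell by 1.34. ATSBT5.2, a subtilase listed under another form of the name, fell by 1.95 and lost its call without triggered replicate 1 (limma adjusted p = 0.0562). The peroxidase gene AT5G64120 (PRX71) read 6.46 and 7.87 in triggered and 9.36 and 10.73 in naive seedlings. It fell by 2.88, but replicate 1 was below replicate 2 by more than a log2 unit in both groups, and the call was lost without naive replicate 2 (0.106) and triggered replicate 1 (0.0924). Of 9 peroxidases picked by name keyword it was the only one called, where 4.88% of all probe sets were called lower. Peroxidase genes that carry no such name are not on that list. sks15, of the multicopper oxidase-like SKU5 family, fell by 2.60 and lost its call without any one array (0.05 to 0.0967).

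Among regulators and transporters, NGA1, a B3-type transcription factor of leaf and flower growth, read 4.67 and 4.10 in triggered and 6.60 and 6.35 in naive seedlings and fell by 2.09. AGL16, a MADS-box factor, fell by 1.80, and OCT5, an organic cation and carnitine transporter, by 1.87. These 3 falls were called without each array in turn. BRH1, a RING-finger protein that responds to brassinosteroid, fell by 1.77, and WRKY6, a factor of senescence and defence, by 1.23. The call of BRH1 was lost without naive replicate 1 (limma adjusted p = 0.0602), naive replicate 2 (0.0821) and triggered replicate 2 (0.105), and that of WRKY6 without any one array (0.0528 to 0.162). Of 24 cytochrome P450 genes 5 fell, against 4.88% of all probe sets, and none rose, while 2 were called lower after median centring, 3 after quantile normalization and 3 without triggered replicate 2. All 5 were CYP71B genes, from CYP71B23 (-1.48) to CYP71B29 (-0.72), in a list that holds mostly this subfamily. Without any one array the calls of CYP71B5 and CYP71B26 were lost (0.0755 to 0.275), and those of CYP71B23, CYP71B6 and CYP71B29 were lost without naive replicate 2 (0.0533 to 0.222) and without triggered replicate 1 (0.055 to 0.312), that of CYP71B29 also without naive replicate 1 (0.128). AQI, the 1 gene matched by the name keyword for aquaporins, fell by 0.84, and whether it encodes an aquaporin was not checked.

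Photosynthesis genes of the nucleus moved little. Of 6 measured genes 2 fell, against 4.88% of all probe sets. PRK, the phosphoribulokinase of the Calvin cycle, fell by 0.79 and ATPC1, a subunit of the chloroplast ATP synthase, by 0.44. PRK read 12.01 and 12.25 in triggered and 13.03 and 12.82 in naive seedlings. The ATPC1 call was lost without any one array (limma adjusted p from 0.137 to 0.178) and after median centring (0.183). LHCB4.1 (-0.43), SBPASE (-0.26), PSAE-1 (-0.23) and RCA (-0.19) were not called. Most of the 6 are abundant leaf transcripts, and all had negative changes. Their median was -0.34, and -0.21 after centring. No gene was called among 4 cell cycle genes, 4 auxin and PIF pathway genes, 2 clock genes, 12 glutathione S-transferases, 9 tubulins, 7 bHLH factors and 5 reference genes. The reference genes had a median change of -0.09, which turned to 0.05 after centring. Of 45 UDP-glycosyltransferases 2 rose, a share near the 3.5% of all probe sets, UGT73C1 by 1.62 and UGT74F1 by 0.85, and both lost the call without naive replicate 1, naive replicate 2 or triggered replicate 1 (0.062 to 0.203), UGT73C1 also without triggered replicate 2 (0.186).

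The wild-type response to the same heat was set beside that of hsfa2. The 2 comparisons share no array. Over 22746 probe sets the changes had a Pearson r of 0.92 and a Spearman rho of 0.78, as a description across probe sets, which are not independent replicates. In wild type 3502 probe sets were called (15.4%), 1341 higher (5.9%) and 2161 lower (9.5%). The hsfa2 groups have 2 arrays each, against 3 in wild type. Of the 797 probe sets that rose in hsfa2, 704 also rose in wild type, which is 88.3% of the hsfa2 list and 52.5% of the wild-type list. Of the 1111 that fell in hsfa2, 976 also fell in wild type, or 87.8% and 45.2% of the 2 lists. Without triggered replicate 2 of hsfa2, 508 of 557 rises and 456 of 482 falls were also called in wild type in the same direction. None of the 1908 was called in opposite directions. Among the 611 probe sets that rose at least 2-fold in wild type, the median change was 2.08 in hsfa2 and 2.04 in wild type. Among the 821 that fell at least 2-fold in wild type, it was -1.17 in hsfa2 and -1.30 in wild type. These probe sets were chosen on the wild-type values, which by itself favours larger changes there.

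Whether the responses differ was tested by the difference of responses, the hsfa2 change minus the wild-type change, in the same model. It was called for 1 probe set of 22746 (0.0044%), and 269 had an unadjusted p under 0.05, where 5% of all would be 1137. Small p-values were thus rarer than an even spread of p-values would give. A single call therefore does not show that the responses are the same. The median half-width of the 95% interval of the difference was 0.58 and the 90th percentile 1.12. At least 10% of the probe sets thus had an interval that reached further than a 2-fold difference to each side. The chaperone groups had near-equal medians. Small heat shock proteins changed by a median of 7.92 in hsfa2 and 8.02 in wild type, larger chaperones by 3.68 and 3.71, and mitochondrion-encoded genes by 3.32 and 3.33. The difference for AT1G53540 was -0.11, with a 95% interval from -2.96 to 2.75, and for AT3G09440 it was -0.04, from -0.37 to 0.30. A 2-fold difference thus lies inside the interval for AT1G53540 and outside it for AT3G09440. For Hop3 the difference was 0.65 (-0.76 to 2.06).

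**Figure D4:**
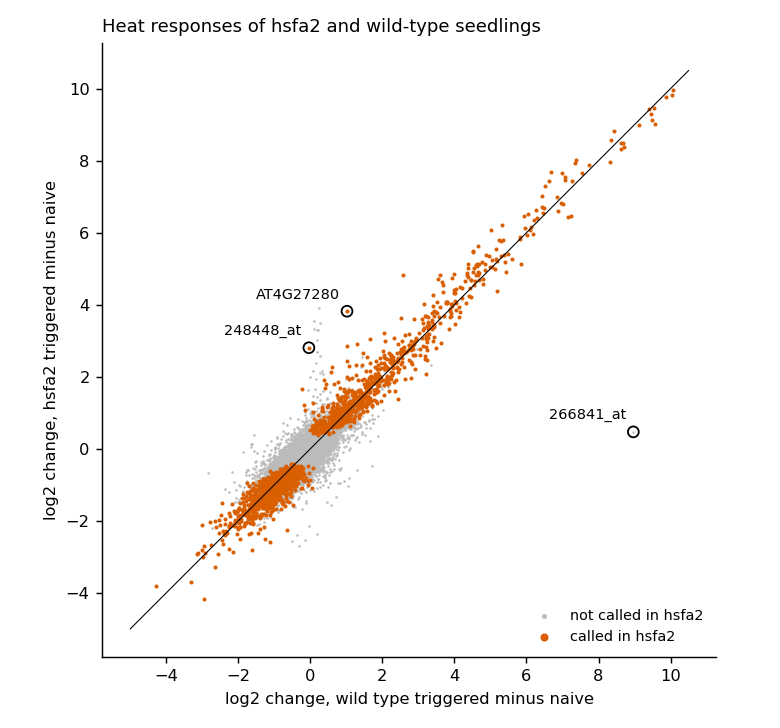
Log2 change in hsfa2 (vertical axis) against log2 change in wild type (horizontal axis) after 1 h of heat for 22746 probe sets, orange where called in hsfa2 and grey where not, with the line of equal changes. Most called points follow the line, 266841_at lies far below it (0.47 in hsfa2 and 8.97 in wild type), and AT4G27280 (3.82 and 1.02) and 248448_at lie above.

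The called probe set was 266841_at, which has no listed gene, and whether it measures HSFA2 itself was not checked. 266841_at read 3.68 and 3.71 in triggered and 3.18 and 3.27 in naive hsfa2 seedlings, a change of 0.47 that was not called (limma adjusted p = 0.207). In wild type it read 12.79, 12.22 and 12.38 in triggered and 3.42, 3.41 and 3.66 in naive seedlings. All 3 heated wild-type arrays were near the top of the scale and every hsfa2 array near the bottom, including the primed and triggered hsfa2 arrays at 3.34 and 3.56. The difference of responses was -8.50 (95% interval -9.07 to -7.93, limma adjusted p = 2.3e-09). It was called under all 17 alternative fits, with values from -8.62 to -8.33.

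The next smallest p belonged to AT4G27280. It read 11.41 and 10.99 in triggered and 7.34 and 7.42 in naive hsfa2 seedlings, a rise of 3.82 ± 0.30 (limma adjusted p = 1.82e-06), or 14.1-fold. In wild type it read 10.05, 10.24 and 9.88 in triggered and 9.09, 9.46 and 8.56 in naive seedlings, a rise of 1.02. The naive hsfa2 arrays were below the naive wild-type arrays and the triggered hsfa2 arrays above the triggered wild-type arrays. The difference of 2.80 (95% interval 1.97 to 3.63) did not pass the test (limma adjusted p = 0.0696, from 0.0104 to 0.678 over the alternatives). It passed in 5 of 17 alternatives, among them the one without wild-type naive replicate 3 (0.0104), the array with the lowest wild-type naive value. 248448_at, with no listed gene, read 7.70 and 6.84 in triggered and 4.46 and 4.46 in naive hsfa2 seedlings, a rise of 2.81, against a change of -0.04 in wild type. Its wild-type naive arrays spread from 5.18 to 7.13, and its difference of 2.85 was not called (limma adjusted p = 0.9999, and 0.0104 without wild-type naive replicate 3). For STZ, too, wild-type naive replicate 3 was the lowest, with 5.08 and 5.0 in naive hsfa2 seedlings against 8.11, 9.03 and 4.67 in naive wild type.

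AT1G11270 rose in both genotypes, by 3.05 in hsfa2 and 1.65 in wild type, with a difference of 1.41 that was not called (limma adjusted p = 0.717). AT5G20200 rose by 1.06 in hsfa2 and changed by -0.15 in wild type, and 264587_at fell by 0.88 in hsfa2 and changed by -0.01 in wild type. Neither difference was called. XTH19, singled out after its values were seen, had 7.24 and 7.10 in triggered and 7.81 and 7.86 in naive hsfa2 seedlings, a change of -0.67 that was not called, against -2.85 in wild type. Its difference of 2.18 had a 95% interval from 0.46 to 3.90 before adjustment and was not called. The count of called differences was 29, 28 of them positive, when triggered replicate 1 of hsfa2 was left out. All 28 were among the 30 probe sets high in triggered replicate 2. Without triggered replicate 2 the count was 1.

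**Figure D5:**
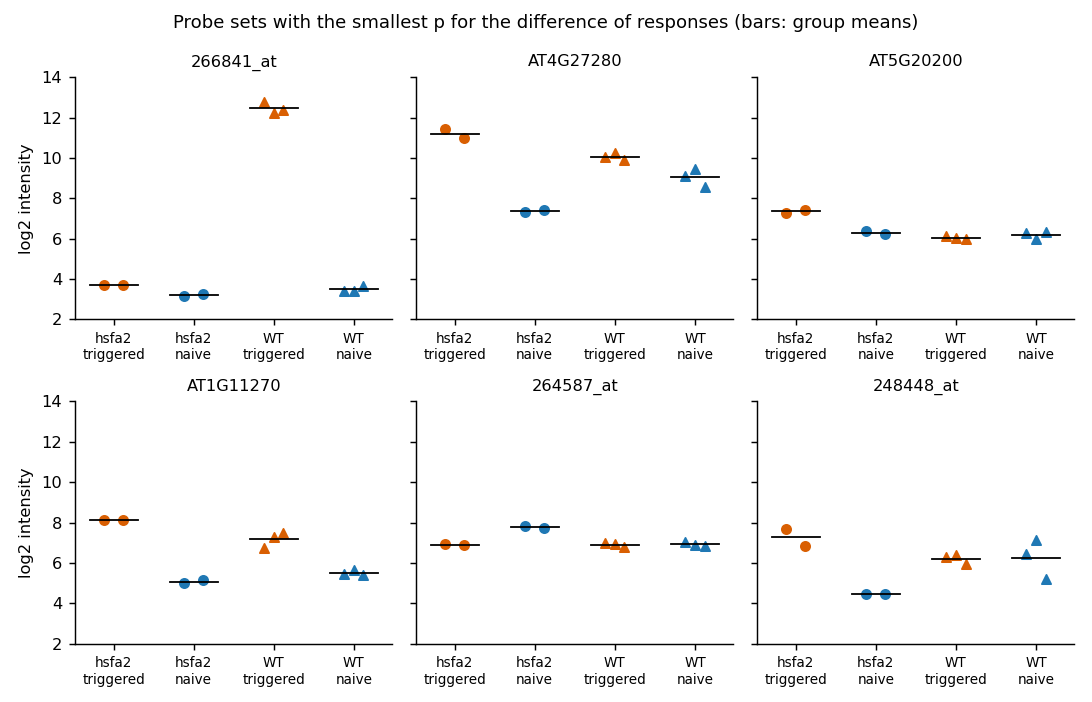
Log2 intensity (vertical axis) of the 6 probe sets with the smallest p for the difference of responses, 1 point per array, in hsfa2 triggered, hsfa2 naive, wild-type triggered and wild-type naive seedlings, with bars at group means. 266841_at is high in the 3 triggered wild-type arrays only, and AT4G27280 spans more in hsfa2 (7.34 to 11.41) than in wild type (8.56 to 10.24).

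Plastid-encoded genes were uneven between the wild-type arrays. Their difference of responses was above 0 for 65 of 69 genes, with a median of 0.66, and 2 of the 69 had an unadjusted p under 0.05. The median SD between arrays of these genes was 0.12 in triggered and 0.14 in naive hsfa2 seedlings, against 1.10 in triggered and 0.78 in naive wild type. The median level was 7.51, 9.25 and 10.61 in the triggered wild-type arrays and 10.73, 9.44 and 10.37 in the naive ones. The 2 hsfa2 groups were thus even and the 2 wild-type groups uneven, and the part of that spread in the difference was not tested. The wild-type spread also enters the test of the hsfa2 change, since all arrays share 1 estimate of the spread.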

How the data were processed

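Biotin-labelled cRNA from total RNA of whole seedlings was hybridized to Affymetrix arrays of 22810 probe sets, per the labels' protocols. The deposited intensity values are on a linear scale and were made by the authors with RMA (background correction, normalization across arrays, probe set summary), per the submitters' processing notes. The version and settings of RMA, and a genome build, are not stated in the sources used here. The values were put on the log2 scale with no pseudocount and no further normalization, and 64 control probe sets were removed, which left 22746. RMA makes array distributions alike, which hides changes in the total amount of RNA. The number of arrays limits the precision, since each hsfa2 group has 2.

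Gene names came from the annotation of the array platform, updated with RefSeq symbols (TAIR10.1): 13513 have 1 gene, 13436 of them matched in RefSeq, 503 have several genes and 8730 are unlisted and unnamed here. The array data carry no coordinates, and no sequences are printed.

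limma 3.58.1 (R 4.3.3, statmod 1.5.0) was fitted to all 17 arrays in 7 groups, which share 1 estimate of the spread (10 residual degrees of freedom, prior 2.92), with Benjamini-Hochberg adjustment over all probe sets. SE is the standard error of the fit. The fit was tested on simulated data with known changes. Genes were named by rule from the 15 largest rises and falls among called probe sets with 1 gene, the 12 largest with a symbol, the 3 largest without a listed gene, the 6 with the smallest p for the difference of responses, all measured small heat shock proteins and larger chaperones, and the 4 largest changes of other lists. A few more, marked as such, were singled out after their values were seen. A gene with several probe sets is represented in lists by the one of highest mean. Members and lists (16 lists of loci with 313 entries, 74 of them measured, and 43 lists by name keyword) were chosen with earlier results of these data known. Alternatives were median centring, quantile normalization, removal of dim probe sets, fewer arrays in the fit, a trended robust prior, a replicate block, a batch term and leaving out each array.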

Additional observations from a re-analysis of the deposited data

Results flagged for a closer look

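266841_at differed between the genotypes: its change with heat was 0.47 in hsfa2 and 8.97 in wild-type seedlings, a difference of -8.50 (limma adjusted p = 2.3e-09). Heated wild-type arrays read 12.22 to 12.79, and no hsfa2 array of any treatment exceeded 3.71. The probe set has no listed gene, and whether it measures HSFA2 itself was not checked. 266841_at is the one probe set whose difference of responses passed the test over all 22746.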

How the results depend on the processing

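The hsfa2 count of 1908 stayed within 1.5 times under median centring (1850), quantile normalization (1870), removal of dim probe sets (1863), a fit of the 10 naive and triggered arrays (1771), a trended robust prior (1797) and a batch term for arrays of low bioB signal (2122, chosen after seeing the data, and no hsfa2 array is in that batch). A fit of the 4 hsfa2 arrays alone called 5084 probe sets, and leaving out single hsfa2 arrays gave 828 to 1039, where fewer arrays and a lone array assumed to vary like the other groups enter the fit. With a replicate block, for samples that share only a number, 2186 were called in the fit of 17 arrays and 7094 in that of 4 arrays, and 2 differences of responses were called (AT4G27280 at limma adjusted p = 0.0343 as the added one), although the labels do not pair the arrays. Deviations from group means correlated across probe sets at 0.20 between same-numbered hsfa2 arrays, and at -0.16, 0.57 and 0.18 in wild type. The count of 1 called difference was 1 in 3 other fits, 2 after removal of dim probe sets, 2 with the trended prior, 4 with the batch term, and 1 to 29 when single arrays were left out. The batch term is the same as leaving out wild-type naive replicate 3 here (4). The wild-type count of 3502 ranged from 2439 to 4324, and the 39 calls on the lists from 32 to 42. Of 88 named probe sets called in hsfa2, 37 of 43 rises and 17 of 45 falls were called without each hsfa2 array in turn, and none of the 88 changed direction under an alternative. Of the 183 named probe sets 13 did, all of them not called. The median change of the reference genes was -0.09 and turned to 0.0479 under centring. Signal near the lowest levels of the arrays limits fold changes of genes that were dim in one group.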
